A study of Canis lupus familiaris with 7 samples.

Results

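The neutrophil granule genes of canine osteosarcoma (OSA) and non-tumor bone were examined in RNA sequencing data as FPKM, fragments per kilobase of transcript scaled to the fragments mapped. Of 10 gene symbols chosen for proteins stored in neutrophil granules or for their control, 9 were measured among the 24580 genes of the table. They were the primary granule genes *MPO*, *ELANE* and *CTSG*, the later granule genes *LTF*, *CAMP* and *LCN2*, and *BPI*, *PGLYRP1* and *CEBPE*. *ELANE* was listed under its older symbol *ELA2* and was matched by a RefSeq synonym, and *AZU1*, the 10th symbol, was not matched and was not analysed here. The 4 non-tumor samples (N1, N3, N8 and N9) were pieces of grossly non-malignant bone beside a tumor, and the 3 OSA tumor samples (T1, T3 and T10) were pieces of the tumor, its diagnosis made by histopathology. All came from dogs at amputation or directly after euthanasia, so the non-tumor bone was from animals with OSA. The labels give neither age, breed nor treatment of the dogs.

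Neutrophils fill their granules while they mature in the bone marrow. Promyelocytes make the primary (azurophil) granules with myeloperoxidase and serine proteases, myelocytes and metamyelocytes make the secondary granules with lactoferrin and cathelicidin, and tertiary granules follow. Most granule transcripts are shut off before the cell enters the blood, so a circulating neutrophil carries the proteins with little of their mRNA, while receptor and S100 transcripts stay high in it.

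The samples differed in tissue content. The summed FPKM of 9 skeletal muscle genes was 72538 in N8 and 42978 in N9, against at most 1113 in the other 5 samples, and that of 10 osteoblast genes ran from 166 in N8 to 7781 in N1 among non-tumor samples and from 2044 to 13379 among tumors. Over tested genes, the profile of N1 correlated with that of T1 at 0.917, the highest value of any pair of samples, and with the other non-tumor samples at 0.572 to 0.670. The number of fragments behind 1 FPKM, read from the lowest values, ran from 0.542 times that of N1 in N8 to 1.44 times in T10, and the labels give only a lower limit of reads common to all samples. An FPKM listed as 0 may be a failed estimate and is given as listed.

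All 9 genes were highest in N3 and N8, and 7 of the 9 were lower in OSA tumor. Lower here means a log2 fold change of tumor over non-tumor of at least 1 in size on the log2(FPKM + 1) scale, with an unadjusted p under 0.05 by limma. Of the 13507 genes tested, 3.58% were lower by these limits. No adjusted p (Benjamini-Hochberg, limma) was under 0.05 for any gene tested, where 927 had an unadjusted p under 0.05; it was 0.693 for 8 of the granule genes and 0.840 for *BPI*. With FPKM rescaled to the same sum 3 genes had an adjusted p under 0.05, and without T1 it was 1 gene. The median log2 fold change was -5.31 over the 9 granule genes and -0.02 over all genes tested. All 9 were tested, since each averaged 1 FPKM or more across the samples, although the tumor mean was under 1 FPKM for 4 of them (*MPO*, *ELANE*, *LCN2* and *CEBPE*).

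**Figure D1:**
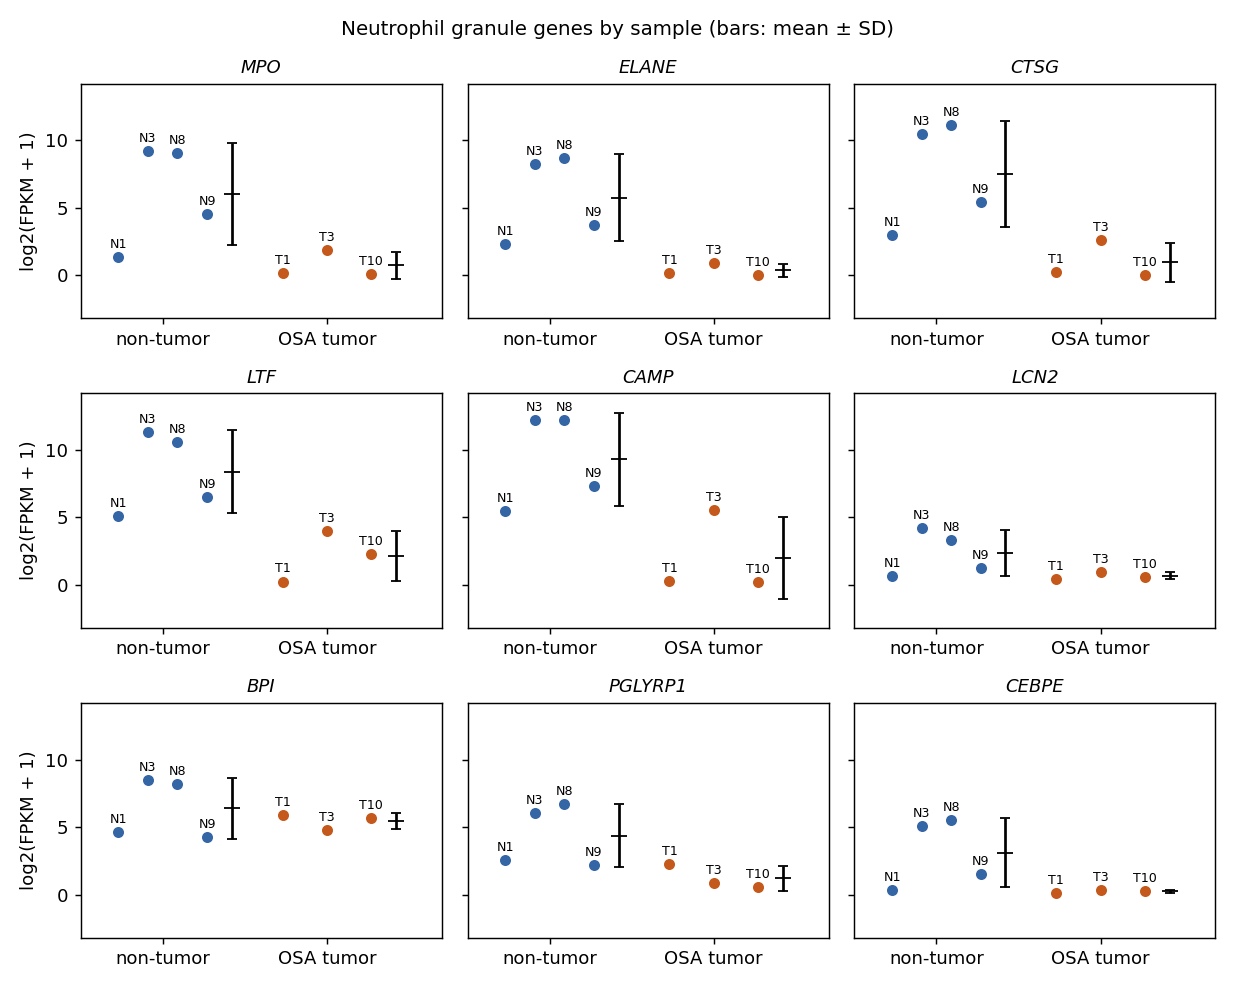
Level of the 9 granule genes in each sample as log2(FPKM + 1), 1 panel a gene, with non-tumor samples (blue) at the left of each panel, OSA tumor samples (orange) at the right and the mean ± SD of each group beside its points. N3 and N8 are the highest samples in every panel, and in *BPI* the 3 tumors lie above N1 and N9.

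Among the primary granule genes, *MPO* (ENSCAFG00000017474, CanFam3.1 chromosome 9, 32899293 to 32937785) encodes myeloperoxidase, which makes hypochlorous acid from hydrogen peroxide. Its FPKM was 588 in N3, 518 in N8, 22 in N9 and 1.46 in N1, against 2.57 in T3, 0.128 in T1 and 0.0608 in T10. N1 lay below T3, so the groups overlapped, while the other 3 non-tumor samples lay above every tumor. *MPO* was lower in tumor with a log2 fold change of -5.31 (SE 1.73, limma p = 0.0128), and an exact permutation test of the group means, two-sided, gave p = 0.114. The interval of *MPO* also covers *LPO*, named after its values were seen, which did not exceed 0.293 FPKM in any sample.

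*ELANE* (ENSCAFG00000019669, chromosome 20, 57789041 to 57790932) encodes neutrophil elastase, a serine protease. It measured 307 FPKM in N3, 411 in N8, 11.9 in N9 and 3.84 in N1, and 0.873 in T3, 0.0874 in T1 and a listed 0 in T10. Every tumor lay below every non-tumor sample, and the log2 fold change was -5.39 (SE 1.46, limma p = 0.0047, exact permutation p = 0.0571). *CTSG* (ENSCAFG00000029775, chromosome 8, 4483434 to 4486028), cathepsin G of the same protease family, was the highest of these 3 genes in each non-tumor sample. Its FPKM was 1432 in N3, 2222 in N8, 41.8 in N9 and 6.88 in N1, and 5.12 in T3, 0.173 in T1 and a listed 0 in T10. Again no tumor reached a non-tumor sample, although N1 and T3 lay close together, and the log2 fold change was -6.55 (SE 1.82, limma p = 0.00548, exact permutation p = 0.0571).

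All 3 later granule genes were highest in N3. *CAMP* (ENSCAFG00000012896, chromosome 20, 40790603 to 40792782) encodes cathelicidin, the precursor of an antimicrobial peptide, and had the highest mean FPKM of the 9 genes. It stood at 4893 FPKM in N3, 4753 in N8, 157 in N9 and 43.7 in N1, and at 44.6 in T3, 0.188 in T1 and 0.125 in T10. The groups overlapped by T3, which was just above N1, and the log2 fold change of -7.34 (SE 1.89, limma p = 0.00344, exact permutation p = 0.114) was the largest of the 9 at a pseudocount of 1. At a pseudocount of 0.01, *CTSG* (-9.69) exceeded *CAMP* (-9.22). *LTF* (ENSCAFG00000013763, chromosome 20, 42231835 to 42263250), the iron-binding lactoferrin, measured 2619 FPKM in N3, 1586 in N8, 89.0 in N9 and 33.5 in N1, and 14.5 in T3, 3.92 in T10 and 0.180 in T1. Its groups did not overlap, and its log2 fold change was -6.23 (SE 1.53, limma p = 0.0026, exact permutation p = 0.0571).

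*LCN2* (ENSCAFG00000020088, chromosome 9, 55328064 to 55332149), the siderophore-binding lipocalin 2, was far lower than the other later granule genes. Its FPKM was 17.8 in N3, 8.84 in N8, 1.42 in N9 and 0.553 in N1, against 0.961 in T3, 0.489 in T10 and 0.369 in T1. It did not pass the test, with a log2 fold change of -1.69 (SE 0.86, limma p = 0.0778, exact permutation p = 0.114), a scale that understates the change of low genes. *CAMP* was 275 times *LCN2* in N3 and 538 times in N8 in FPKM, 110 times in N9, 79.0 times in N1 and 46.5 times in T3. In T1 it was 0.508 times and in T10 0.256 times, where both were under 1 FPKM.

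*BPI* (ENSCAFG00000008901, chromosome 24, 26774177 to 26801096), a primary granule protein that binds bacterial endotoxin, departed from the rest. It measured 369 FPKM in N3, 287 in N8, 18.2 in N9 and 23.4 in N1, and 58.1 in T1, 50.8 in T10 and 26.1 in T3. All 3 tumors lay above N1 and N9 and below N3 and N8, and the fold change of -0.95 on the log2 scale (SE 1.08, limma p = 0.404, exact permutation p = 0.571) was within its error. In T1 and T10, *BPI* made up most of the FPKM of the 9 genes, which summed to 63.0 and 56.0, and the other 8 ranged from a listed 0 to 3.92.

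*PGLYRP1* (ENSCAFG00000029461, chromosome 1, 109605098 to 109643026), a peptidoglycan recognition protein of the granules, measured 65.8 FPKM in N3, 105 in N8, 3.51 in N9 and 4.81 in N1, and 3.75 in T1, 0.769 in T3 and 0.457 in T10. Its groups overlapped, with T1 above N9, and it was lower in tumor by a log2 fold change of -3.17 (SE 1.14, limma p = 0.0207, exact permutation p = 0.114). Its interval is shared with 2 other listed genes, of which *CCDC61*, named after its values were seen, measured 0.985 to 7.36 FPKM and the other was listed at 0 in all samples. *CEBPE* (ENSCAFG00000011433, chromosome 8, 3423038 to 3425473) encodes a transcription factor that secondary granule genes need. It stood at 33.6 FPKM in N3, 44.4 in N8, 1.84 in N9 and 0.281 in N1, and at 0.284 in T3, 0.196 in T10 and 0.0749 in T1. *CEBPE* was lower in tumor, at -2.88 (SE 1.19, limma p = 0.0382, exact permutation p = 0.114), with N1 and T3 level.

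By group, the tumors were below all non-tumor samples for 3 of the 9 genes (*ELANE*, *CTSG* and *LTF*), a pattern that 2.81% of all tested genes showed. An exact permutation p of 0.0571, two-sided, is the smallest that 4 against 3 samples allow, and these 3 genes reached it. In bulk tissue, fewer cells of a type and less RNA per cell cannot be told apart.

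**Figure D2:**
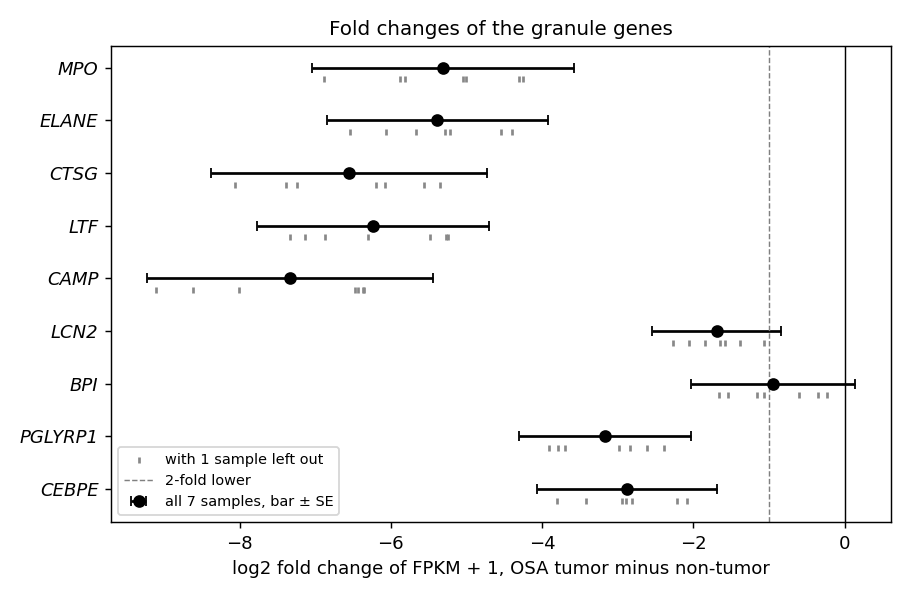
Log2 fold change of OSA tumor over non-tumor bone for each granule gene on the log2(FPKM + 1) scale, with bars for 1 SE of the limma fit, ticks for the values when each sample in turn was left out and a dashed line at -1. All estimates lie below 0, from -7.34 in *CAMP* to -0.95 in *BPI*, at a pseudocount of 1.

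The calls of *ELANE*, *CTSG*, *LTF* and *CAMP* held whichever sample was left out. The call of *MPO* was lost without T1 (-5.05) and without T10 (-5.01), and that of *PGLYRP1* without N3 (-2.61), N8 (-2.39), T3 (-2.98) or T10 (-2.84). For *CEBPE* the call was lost without N3 (-2.21) or N8 (-2.08), and also without T1 (-2.81), T3 (-2.94) or T10 (-2.89), where the fold change hardly moved. Without T10, 4 of the 9 were lower, where 0.933% of all genes were. Without N1, 8 of 9 genes were lower, all but *BPI*, where 8.48% of all genes were, and *LCN2* was then at -2.27, while without N3 it was at -1.07. Also without N1, the groups were apart for 7 of the 9 genes, against 9.31% of all genes, the exceptions being *BPI* and *PGLYRP1*. With N8 and N9, the samples high in muscle genes, left out, *ELANE*, *CTSG*, *LTF*, *CAMP* and *PGLYRP1* were lower, where 0.763% of all genes were, and *MPO* (-4.55) and *CEBPE* (-2.50) lost their calls. The study describes the non-tumor bone as matched to the tumors, but the labels do not say that a shared number marks a dog. With the number as a random block *LCN2* was added to the 7, against 3.92% of all genes lower. With it as a fixed block in N1, N3, T1 and T3 alone, *MPO*, *PGLYRP1* and *CEBPE* lost their calls and 4 genes were lower, against 0.733% of all genes.

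Most of the signal came from 2 libraries. N3 and N8 together held between 78.8% (*BPI*) and 98.5% (*CTSG*) of the FPKM summed over the 7 samples. N9 was the third in 7 of the 9 genes, and T3 was the highest tumor in 7. The 9 genes summed to 10324.5 FPKM in N3, 9936.1 in N8, 346.7 in N9 and 118.5 in N1. All genes together summed to 688700, 1752000, 1310000 and 539600 FPKM in these samples. The 9 genes thus made up 1.5% of all FPKM in N3 and 0.567% in N8, but 0.0265% in N9 and 0.0220% in N1. Since the totals differ, these shares rank the samples otherwise apart than the sums do. In the tumors the 9 genes made up 0.00563% to 0.0106%, which in T1 and T10 was mostly *BPI*.

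N3 and N8 differed from each other in which granule genes were higher. *CTSG* was 1.55 times as high in N8 as in N3, *ELANE* 1.34 times, *PGLYRP1* 1.6 times and *CEBPE* 1.32 times, whereas *LTF* was 0.606 times and *LCN2* 0.498 times as high. *CAMP* at 0.971 times and *MPO* at 0.882 times were nearer to level, and *BPI* was 0.78 times as high. With 1 library each, these ratios have no replicate error. Against N9, N3 was higher by 25.8 to 34.3 times for the 3 primary granule genes and by 29.4, 31.2 and 12.5 times for *LTF*, *CAMP* and *LCN2*.

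The primary granule genes of immature marrow cells were then set against the later granule genes. The summed FPKM of *MPO*, *ELANE* and *CTSG* was 30.9% of that of *LTF*, *CAMP* and *LCN2* in N3, 30.6% in N9 and 49.7% in N8. N3 and N9 thus had nearly the same ratio although the sums in N3, 2327 and 7530, were far above those in N9, 75.7 and 247. The ratio was 15.7% in N1 and 14.3% in T3, at sums of 12.2 and 77.8 in N1 and of 8.56 and 60.1 in T3. In T10 it was 1.34%, with a primary sum of 0.0608 FPKM against 4.53, most of the latter *LTF*. The 52.7% of T1 rests on sums of 0.388 and 0.736 FPKM. *BPI*, also a primary granule protein, was not part of the primary sum. At 50.8 FPKM in T10 and 58.1 in T1, *BPI* exceeded both sums there.

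**Figure D3:**
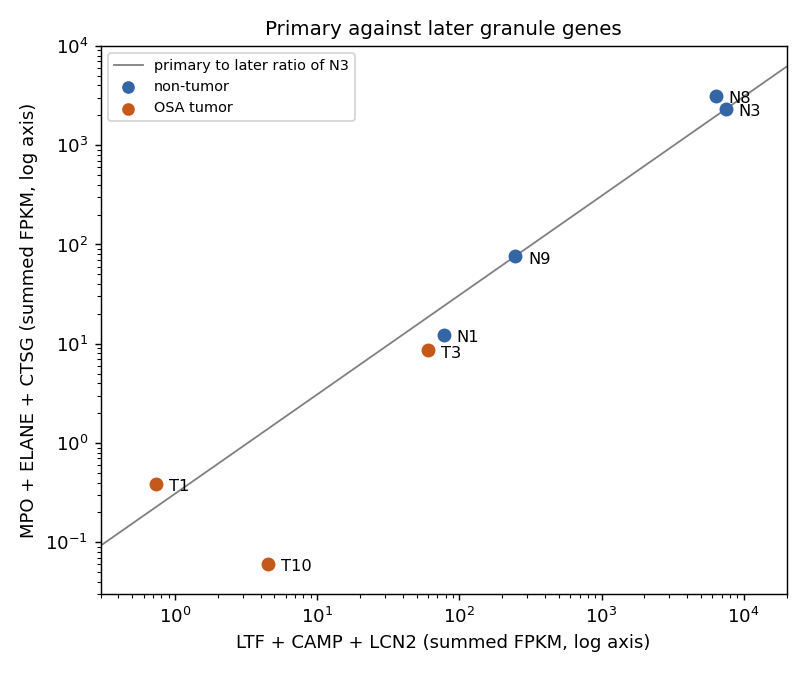
Summed FPKM of the primary granule genes (*MPO*, *ELANE*, *CTSG*) against that of the later granule genes (*LTF*, *CAMP*, *LCN2*) in each of the 7 samples, both axes logarithmic. The line marks the ratio of N3, 30.9%, beside which N9 (30.6%) lies, while N8 and T1 lie above it and N1, T3 and T10 below.

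Single pairs of genes did not all show this order. *CTSG* was 140% of *LTF* in N8, 54.7% in N3, 46.9% in N9, 35.3% in T3 and 20.5% in N1. *MPO* was 22.4% of *LTF* in N3, 32.7% in N8, 24.8% in N9, 17.7% in T3 and 4.36% in N1. *ELANE* was 25.9% of *LTF* in N8, 13.4% in N9, 11.7% in N3, 11.5% in N1 and 6.02% in T3, so N1 was the lowest non-tumor sample for all 3 genes but close to N3 for *ELANE*. Relative to *CAMP*, N8 was not high for *MPO*, at 10.9% against 12% in N3 and 14% in N9, and N1 was the highest non-tumor sample for *ELANE*, at 8.80%.

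As a mean of log2(FPKM + 1), the primary granule genes stood at 6.41 ± 3.65 (SD, n = 4) in non-tumor and 0.66 ± 0.97 (SD, n = 3) in tumor, and the later granule genes at 6.69 ± 2.73 and 1.60 ± 1.66. Primary minus later was 0.89 in N8, 0.04 in N3, -0.48 in N9 and -1.56 in N1, against -0.14 in T1, -0.99 in T10 and -1.69 in T3. The group means of this difference, -0.28 ± 1.02 (SD, n = 4) and -0.94 ± 0.78 (SD, n = 3), were apart by -0.66, less than the spread within non-tumor bone. All 3 primary granule genes and 2 of the 3 later ones passed the limits singly, and the difference between the 2 kinds was not tested. The primary granule means of T1 and T10 and the later one of T1 lie near 0 on this scale, and with a pseudocount of 0.01 in place of 1 the group difference was -2.42.

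Genes of mature neutrophils were set beside the granule genes by taking each as a percentage of its own FPKM in N3. In N9 the 2 lists lay alike, at a median of 3.99% over 12 mature neutrophil genes and of 3.88% over the 9 granule genes, and in N1 the medians were 1.87% and 1.25%. In T3 they were 3.37% and 0.845%, and in T1 1.54% and 0.0285%. T10 stood at 10.9% for the mature neutrophil genes and 0.150% for the granule genes. All 12 mature neutrophil genes exceeded 3% of N3 in T10, while 7 of the 9 granule genes were under 1%, the exceptions being *BPI* at 13.8% and *LCN2* at 2.75%.

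**Figure D4:**
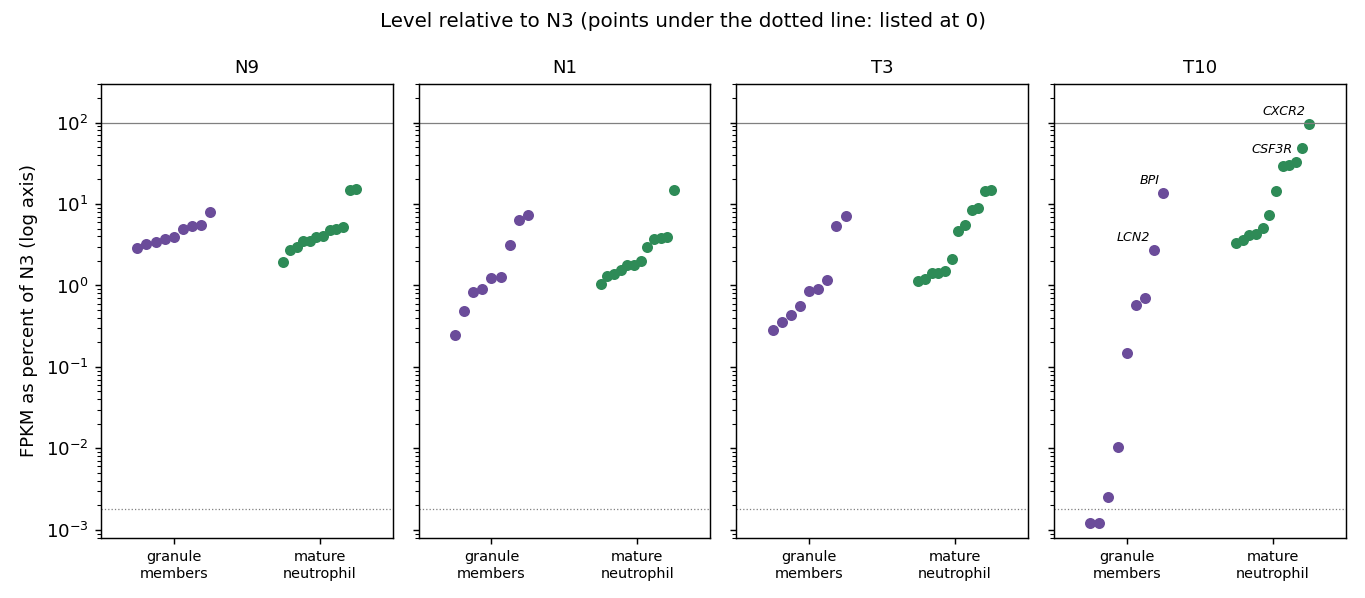
FPKM of each gene as a percentage of its FPKM in N3, on a log axis, for 12 mature neutrophil genes and the 9 granule genes in N9, N1, T3 and T10, each point a gene, with a line at 100% and genes listed at 0 drawn under the dotted line. The lists overlap in N9 (medians 3.99% and 3.88%) and have medians far apart in T10 (10.9% and 0.150%), where *BPI* lies within the range of the mature neutrophil genes and *ELANE* and *CTSG* are listed at 0.

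In T10, 5 of the 12 mature neutrophil genes passed 25% of N3, and they were named after their values were seen. Among them were the chemokine receptor gene *CXCR2* at 95.5%, the G-CSF receptor gene *CSF3R* at 32.7%, *TREM1* at 29.9% and the complement receptor gene *C5AR1* at 29.5%. Some of these are also transcribed in monocytes. Other mature neutrophil genes stood far lower in T10, among them *S100A12* at 3.28% of N3, *PADI4* at 3.57% and *S100A9* at 4.13%. Of the 6 macrophage genes measured, *MSR1*, named after its values were seen, was higher in T10 than in N3, at 36.3 and 21.6 FPKM. The other 5 were lower there than in N3, among them *FCGR1A* at 40.6 against 62.0, *CD68* at 15.5 against 77.7, *CSF1R* at 11.5 against 38.3 and *CD163* at 5.29 against 71.1. As percentages of N3, the macrophage genes had a median of 32.2% in T10, above the 10.9% of the mature neutrophil genes. The macrophage genes summed to 110 FPKM in T10, 107 in T3 and 484 in T1, and 36.5 to 273 in non-tumor bone. Their part in the T10 values was not tested.

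Other granule genes were examined by lists. Of 8 other secondary granule genes measured, 7 were tested and 3 were lower, *MMP8* (neutrophil collagenase), *CD177* (a neutrophil surface protein held in secondary granules) and *HP* (haptoglobin), with log2 fold changes of -5.03, -5.39 and -3.90. The median of the 7 was -2.36. *MMP8* measured 635 FPKM in N3, 312 in N8, 24.0 in N9 and 7.14 in N1, and 0.286 to 4.15 in tumors, so its groups did not overlap. Of the 4 other primary granule genes none passed the test, at a median of -0.42. Among them *LYZ*, lysozyme, which macrophages also make, measured 3877 FPKM in N3, 1825 in N8, 206 in N9 and 42.2 in N1, and 236 in T10, 75.1 in T3 and 34.3 in T1. The 8 tertiary granule genes tested, among them the NADPH oxidase genes *CYBA* and *CYBB*, had a median of -0.86 with 0 past the limits.

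Of the 12 mature neutrophil genes, 3 were lower, *PADI4*, *S100A9* and *S100A12*, at -3.25, -4.34 and -4.24, and the median was -1.34. None of the 7 granulocyte transcription factors other than *CEBPE* passed the test (median -0.85), nor did any of the 5 myeloid progenitor genes (-0.87). Lower levels in tumor were thus counted for 7 of 9 granule genes, 3 of 7 other secondary granule genes and 3 of 12 mature neutrophil genes, and these shares were not tested against each other.

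The erythroid genes of the marrow were, as a sum, also highest in N8 and N3. The summed FPKM of 12 erythroid genes was 3167 in N3, 4719 in N8, 287 in N9 and 42.2 in N1. In the tumors it was 32.9 in T3, 45.4 in T1 and 121 in T10. *TFRC* alone gave 31.0 of this sum in N1, 23.8 in T3, 38.9 in T1 and 44.6 in T10. Of these genes, 8 of the 12 were lower in tumor, with a median of -3.68. The order of the non-tumor samples in the erythroid sum is also the one of the summed primary granule genes *MPO*, *ELANE* and *CTSG*. In the tumors the orders differed. T10 was the highest for the erythroid sum and the lowest for this primary granule sum, which leaves out *BPI*. Mast cell genes (2 of 5 lower), eosinophil genes (0 of 2) and B cell precursor genes (0 of 5) had medians of -1.53, -2.28 and -1.59. Among genes that mark other tissue, 7 of 9 skeletal muscle genes were lower (median -6.62), and none passed among the 10 osteoblast genes (1.56), the 6 macrophage genes (0.05), the 8 cell cycle genes (0.26) and 3 epithelial genes (0.49). The part of tissue content in the granule gene values was not tested.

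Leaving out the 9 granule genes themselves, the genes whose log2(FPKM + 1) most resembled the mean of the 3 primary granule genes over the 7 samples were *GCLC*, *CD177*, *MMP8*, *CKPI* and *CRISP2*, with Pearson correlations of 0.996, 0.995, 0.99, 0.984 and 0.984. For the mean of the later granule genes they were *GCLC*, *MMP8*, *CD177*, *CKPI* and *IGJ*, at 0.992, 0.991, 0.988, 0.988 and 0.982. Of these, *CKPI* measured 5507 FPKM in N3 and 5701 in N8, and *GCLC*, an enzyme subunit of glutathione synthesis, varied only between 6.74 and 33.5 FPKM. The 7 points of each correlation share their libraries, and N3 and N8 stand apart from the other 5. Against the primary granule mean, *CEBPE* correlated at 0.977, *LTF* at 0.974, *CAMP* at 0.965, *LCN2* at 0.955, *PGLYRP1* at 0.930 and *BPI* at 0.756. *BPI* was thus the granule gene least like the others.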

How the data were processed

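Total RNA of the 7 samples was sequenced as paired ends from stranded libraries on an Illumina HiSeq. The authors used Trim Galore for trimming and Tophat2 for alignment to CanFam3.1, and deposited FPKM per gene and sample from Cufflinks/Cuffdiff. Tool versions and the scaling between libraries are not given in the sources used here, and 0 columns of samples were left unused. The table in which the authors compared the groups (fold changes, p-values, q-values) was used for coordinates alone, with 1 added to each start. Counts were not analysed here, and depth was read only as the relative number of fragments behind 1 FPKM.

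All genes averaging 1 FPKM or more were tested on the log2(FPKM + 1) scale by limma 3.58.1 (R 4.3.3) with a mean-variance trend. The limits were those the study states, a change of 2-fold or more and p below 0.05, applied here to the unadjusted p. The Benjamini-Hochberg adjustment covered all tested genes. Exact permutation tests covered the 35 divisions of the samples into 4 and 3, in Python 3.11.15 with scipy 1.17.1. The fit was tested on simulated data.

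The granule genes, the other lists and the tests were chosen with earlier results of these data known. Named were all granule genes measured, up to 4 genes of the highest mean FPKM in each other list, and the 5 genes most correlated with each granule mean, and others are said to be named after their values were seen. The study speaks of matched adjacent tissue, but no label says which samples share a dog or are independent, so p-values measure the spread between these samples. Alternatives were the pseudocount, filter, scaling, trend, sample weights, replicate block and leaving out samples. A single gene that counts toward these lists is not reported here.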

Additional observations from a re-analysis of the deposited data

Results flagged for a closer look

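Among 83 sets of 4 non-tumor values tested for a sample standing apart from the other 3 by Dixon's criterion, at 1 in 20, 4 were marked. None was among the 9 granule genes described above. All sets share the same 4 libraries and are not independent, so the number marked cannot be set against chance. *CHI3L1*, on the list of other secondary granule genes, stood apart in N9 at 6.75 on the log2(FPKM + 1) scale. The cell cycle gene *PLK1* stood apart in N9 at 1.68. The epithelial genes *KRT19* and *KRT5* stood apart in N3 at 0.93 and 0.76 on the same scale, and for *KRT5* the other 3 samples were listed at 0.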

How the results depend on the processing

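The 9 granule genes gave 171 fold changes over 19 alternatives each: 151 kept their side of the limits, 17 calls were lost, 3 were gained (all *LCN2*) and 0 changed sign. *ELANE*, *CTSG*, *LTF* and *CAMP* passed and *BPI* missed the limits under every alternative. Leaving out 1 sample at a time gave 4 (without T10) to 8 (without N1) lower granule genes and 319 (without N8) to 1997 (without N1) genes past the limits, against 7 and 926. Sample weights (arrayWeights) gave 1857 genes. Without N8 and N9, chosen after seeing the data, 184 genes (103 lower) and 5 granule genes passed.

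The labels do not say that a shared number marks a dog. Deviations from the group means correlated at 0.42 for N1 and T1 and 0.21 for N3 and T3. With a random replicate block, 1062 genes (529 lower) and 8 granule genes passed, and with a fixed replicate block over those 4 samples 241 (99 lower) and 4.

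The difference of primary minus later granule level between groups, -0.66, was -2.42 at a pseudocount of 0.01 and -1.09 to -0.27 with 1 sample left out. Without the filter on low values, *CEBPE* lost its call. Rescaling FPKM to the same sum moved the median of all genes from -0.02 to 0.12 and the lower share of all calls from 52.2% to 64.5%, and leaving out T10 gave 29.7%, while all 9 granule genes stayed negative. The count of fragments behind each value was not analysed here, only the relative number behind 1 FPKM, so no counting error is given for values under 1 FPKM.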
